A study of Mus musculus with 24 samples.

Results

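Accessible chromatin was compared between KLS cells that had lost both Daxx and Pu.1 (DKO) and Daxx-WT KLS cells at 3 weeks post induction (w.p.i.) of Cre, which involves 4 of the 24 libraries of the series. KLS cells are bone marrow cells with c-Kit and Sca-1 but no markers of mature lineages on their surface (c-Kit+ Lin- Sca-1+), a mixture of haematopoietic stem cells and multipotent progenitors. The 2 DKO libraries came from C57BL/6 mice that were floxed at both genes (Daxx F/F and Pu.1 F/F, with Cre +/-), and the 2 Daxx-WT libraries from Daxx +/+ Cre +/- mice of the same strain. Both groups thus carried Cre, and in the study the mice received pI:pC, an inducer of interferon that switches on Mx1Cre in blood cells and in other cells that respond to interferon. ATAC-seq was used, in which the Tn5 transposase cuts and tags open DNA so that reads gather over promoters, enhancers and other accessible regions. The members are the 50928 sites that the deposited table of this comparison lists. A site was within a peak where it shared at least 1 bp with a conservative peak of the DKO or the Daxx-WT KLS list, and it was assigned to the protein-coding gene with the nearest transcription start site (TSS), up to 100 kb away. Cells that lack Pu.1 alone were not analysed here, so the parts that loss of Daxx and loss of Pu.1 play in a difference cannot be told apart.

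Daxx is a histone chaperone that, together with ATRX, deposits the histone variant H3.3, mainly at heterochromatin and repeats, and that also binds corepressors and PML bodies. Pu.1, encoded by Spi1, is an ETS transcription factor that binds a purine-rich GGAA core, opens nucleosomal DNA and is required for myeloid and B lymphoid progenitors. In the myeloid lineage it acts beside the C/EBP factors, of which C/EBPα starts and C/EBPε completes granulocyte differentiation. GATA factors drive erythroid, megakaryocytic and mast cell programmes and antagonise Pu.1. MEIS and HOX factors maintain stem cells.

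To show what the sites look like, the reference sequence around sequence words at called sites is given first (mm10, plus strand, 5′ to 3′, 120 bases each). The first 5 lie at sites with fewer reads in DKO cells, near genes of myeloid or lymphoid cells. Capitals mark the Pu.1 word GAGGAAGT (ACTTCCTC when it lies on the minus strand), at most 100 bp from the summit of a Daxx-WT peak. They are chr4:32373441-32373560 in an intron of Bach2, chr1:182928657-182928776 at 25 kb from the TSS of Tlr5, chr4:55623445-55623564 at 90.5 kb from Klf4, chr19:61244792-61244911 at 15.9 kb from Csf2ra and chr7:128048857-128048976 at 13.0 kb from Itgam.
Bach2: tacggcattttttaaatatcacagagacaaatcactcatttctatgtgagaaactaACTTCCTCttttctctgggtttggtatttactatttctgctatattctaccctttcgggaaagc
Tlr5: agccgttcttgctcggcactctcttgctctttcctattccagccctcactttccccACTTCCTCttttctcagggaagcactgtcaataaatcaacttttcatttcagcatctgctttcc
Klf4: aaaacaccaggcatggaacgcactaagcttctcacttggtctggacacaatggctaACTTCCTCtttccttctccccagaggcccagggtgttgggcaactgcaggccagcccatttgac
Csf2ra: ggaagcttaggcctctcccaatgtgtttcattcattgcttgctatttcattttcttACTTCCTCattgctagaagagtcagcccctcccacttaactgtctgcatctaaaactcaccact
Itgam: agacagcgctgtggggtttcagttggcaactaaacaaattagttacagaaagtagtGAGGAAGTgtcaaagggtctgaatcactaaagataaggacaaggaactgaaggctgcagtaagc
Of 71 called lower sites within Daxx-WT peaks near genes of the myeloid and lymphoid lists, 10 held this word. All 5 sites shown lay in peaks of Daxx-WT LT-HSCs and GMPs and in no DKO peak. Of all called lower sites within peaks, 97.4% lay in LT-HSC, 75.3% in GMP and 7.16% in DKO peaks, and 15.9% held the word.

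The next 3 sequences lie at sites with more reads in DKO cells. Capitals mark the C/EBP word TTGCNNAAT in either orientation. They are chr9:109861372-109861491 at 11.3 kb from Camp, chr4:126017803-126017922 at 6.0 kb from Csf3r and chr9:44004286-44004405 at 37.8 kb from Thy1.
Camp: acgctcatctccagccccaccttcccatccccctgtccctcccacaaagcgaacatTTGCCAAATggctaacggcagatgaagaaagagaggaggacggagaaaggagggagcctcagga
Csf3r: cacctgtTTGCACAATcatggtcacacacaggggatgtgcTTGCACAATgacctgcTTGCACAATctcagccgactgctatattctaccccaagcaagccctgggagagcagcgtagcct
Thy1: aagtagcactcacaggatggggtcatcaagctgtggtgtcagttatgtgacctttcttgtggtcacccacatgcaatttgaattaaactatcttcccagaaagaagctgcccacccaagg
The Csf3r sequence held the C/EBP word 3 times. The Thy1 sequence, centred on a DKO summit, is shown as 1 of the higher sites with the largest change near a listed gene and held no such word. The Camp and Csf3r sequences were chosen after the values were seen, from 12 of 105 called higher sites within DKO peaks near listed genes that held the C/EBP word. Of the 18 such sites near granule genes, 1 held it.

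The targeted genes were examined in every library before the other sites. At the site over exons 6 to 7 of Daxx, which were flanked by LoxP sites in the study, the scaled reads (the authors' unit, reads of a site divided by a constant for the library) were 6.36 and 8.43 in DKO and 79.9 and 45 in Daxx-WT libraries. At the site over exon 5 of Spi1, the last exon, the DKO libraries had 2.12 and 4.68 scaled reads, against 31.1 and 58.1 in Daxx-WT. The groups did not overlap at either site, as at every called site, and the direction was the one that the labels give. The difference, log2((DKO mean + 1)/(Daxx-WT mean + 1)), was -2.92 for Daxx and -3.37 for Spi1 (limma adjusted p = 6.06e-12 and 1.35e-16). Neither site was called when a DKO library was left out, with adjusted p = 0.0609 without DKO 1 and 0.193 without DKO 2 at both sites. No other listed site within Spi1 was lower. At the site in its intron at 4.5 kb from the TSS, the DKO libraries had 314.9 and 270.8 scaled reads against 110.9 and 119.5, a log2 difference of 1.34. With the equal-mean scaling described below, the difference was 0.69 and the site was not called.

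Library size and scaling bear on every count of sites. A window of 600 bp held 7.45 to 16 reads in the mean of a library, and total read numbers were not known here. The authors' scaling left DKO with means of 10.6 and 15.0 and Daxx-WT with means of 7.39 and 8.19. Scaling every library to the same mean instead moved the log2 differences of listed sites by 0.67 at the median towards lower values in DKO. All called sites kept their direction, but of the 34252 sites called higher 3310 were called higher after that scaling, whereas the 7603 called lower sites were all called lower again and 13843 were called in all. In the sites described below, brackets after the reads hold the log2 difference and, where a second value follows, the difference after equal-mean scaling.

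Of the 50928 listed sites, 34252 (67.3%) were called higher and 7603 (14.9%) lower in DKO cells with limma. Without either DKO library limma called 0 sites in both directions (35230 higher and 10016 lower sites had an unadjusted p under 0.05 without DKO 1, and 34826 and 10116 without DKO 2), and without Daxx-WT 1 it called 22502 higher and 3731 lower sites. No call described here, for a site or a gene of a list, therefore stood without either DKO library. With 2 libraries a group, limma gave every site the same SE of 0.36, so a call amounts to a mean log2 difference of at least 1.02 in size, and the authors had selected the sites on the same libraries. The labels do not say whether the libraries came from separate mice, so the p-values measure the spread between these libraries. That spread is pooled over all listed sites, and the spread at a site itself does not enter its p-value. The called sites fell into 4 classes by direction and position. The DKO and Daxx-WT libraries did not overlap at 100% of the called sites in each class. Separate groups at a called site are therefore no further support. Within peaks, 4384 sites were lower, with a median of 42.2 scaled reads in DKO and 103.0 in Daxx-WT cells and a median log2 difference of -1.2. Within peaks, 3136 sites were higher (medians 112.0 and 39.0, log2 difference 1.40). Outside peaks, 3219 sites were lower (20.1 and 48.2, -1.23) and 31116 were higher (41.0 and 14.5, 1.47). The higher sites outside peaks thus had in DKO cells about as many reads as the lower sites within peaks had in DKO cells. Reads are totals of a site, and the higher sites outside peaks were shorter, with a median of 750 bp against 1150 bp. Since each library is a bulk of sorted cells, a region less open in each cell and fewer cells with an open region cannot be told apart. The DKO list held 22156 peaks and the Daxx-WT list 33325. The share of reads within peaks was not measured for any library. The part of library quality in the losses within peaks and the gains outside them was not tested. A peak covered 57.7% of the called lower and 9.16% of the called higher sites.

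Sites that lost reads within peaks were peaks of Daxx-WT cells: 99.9% lay in a Daxx-WT and 7.16% in a DKO peak. Of these sites, 90.2% also lay in a peak of KLS cells from Daxx-KO mice, which lack Daxx alone, at the same time point. Sites that gained reads within peaks lay in a DKO peak in 95.9%, in a Daxx-WT peak in 12.1% and in a Daxx-KO peak in 18.8% of cases. Peaks were called on the same libraries as the sites, so the first of these shares follow in part from the difference itself. The Daxx-KO list shares no library with the DKO list, and it was longer, with 44694 peaks against 22156. Promoters (within 1000 bp of a TSS) held 22.3% of lower and 16.7% of higher sites within peaks, introns 35.9% and 38.1%, and intergenic DNA 33.7% and 31.0%.

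Peak lists of other Daxx-WT populations were made from libraries that take no part in the comparison. They were used to ask in which populations such regions lay in peaks. In the study, these cells came from RosaCreERT2 mice given tamoxifen, not pI:pC, and another ATAC-seq protocol was used. The lists also differ in extent, with 62.9 Mb covered for LT-HSCs, 48.5 Mb for CMPs and 45.4 Mb for GMPs. The part of these differences in the shares below was not tested. Long-term haematopoietic stem cells (LT-HSCs) head the hierarchy, common myeloid progenitors (CMPs) give rise to all myeloid cells, and granulocyte and monocyte progenitors (GMPs) make only those lineages. Of the lower sites within peaks, 97.4% lay in LT-HSC, 87.0% in CMP and 75.3% in GMP peaks. Of the higher sites within peaks, 19.9% lay in LT-HSC, 42.3% in CMP and 69.4% in GMP peaks, the opposite order. With 50% of the site required in a peak, 91.5% of the lower sites lay in LT-HSC and 50.8% in GMP peaks, and 5.36% and 28.0% of the higher sites. All Daxx-WT KLS peaks gave 97.7%, 92.1% and 85.8%, and all DKO KLS peaks 84.5%, 88.2% and 91.4%. For the 16145 Daxx-WT peaks that were absent from the DKO list, the share in GMP peaks was 73.9%, close to the 75.3% of the lower sites. The 4742 DKO peaks absent from the Daxx-WT list were in LT-HSC peaks in 32.2%, in CMP peaks in 51.9% and in GMP peaks in 71.8%, so the order of the higher sites was shared by DKO peaks that were chosen without the site table, though from the same libraries. GMP but not LT-HSC peaks covered 53.4% of higher and 1.67% of lower sites within peaks.

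Sites outside KLS peaks were split in another way. Of the lower sites outside peaks, 66.9% lay in an LT-HSC, 47.9% in a CMP and 38.6% in a GMP peak, so most of them overlapped a peak of another population. Of the higher sites outside peaks, 2.29%, 4.10% and 7.55% did so, and 90.4% lay in no peak of the 3 populations. These shares are descriptions over sites of 2 libraries a group. After equal-mean scaling, 0.694% of the called higher sites within peaks lay in LT-HSC and 35.1% in GMP peaks, with the order kept.

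**Figure D1:**
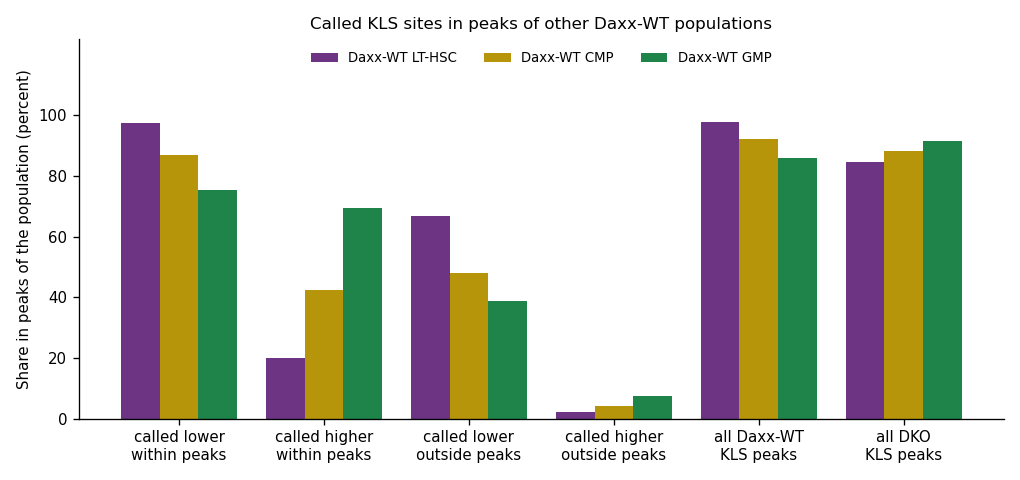
Share of sites or peaks (vertical, percent) that shared at least 1 bp with peaks of Daxx-WT LT-HSCs, CMPs and GMPs, for the 4 classes of called sites and for all peaks of each KLS list. The bars fall from LT-HSC to GMP for lower sites within peaks (97.4% to 75.3%) and climb for higher sites within peaks (19.9% to 69.4%).

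Sequence words were counted on both strands within 100 bp of the highest peak summit of a site (of its centre outside peaks). The Pu.1 word GAGGAAGT, seen above at Bach2, Klf4 and Itgam, was held by 15.9% of lower and 4.21% of higher sites within peaks, against 7.28% of all Daxx-WT and 4.0% of all DKO peaks. The composite word for Pu.1 with an IRF partner, a lymphoid and dendritic cell element, was at 4.43% and 1.5% (2.57% and 1.75% of all peaks). Words of stem and progenitor cell factors did not all go the same way. The GATA word AGATAAG was at 6.41% of lower and 1.88% of higher sites (2.81% and 1.66% of all peaks), and the MEIS/HOX word TGATTTAT at 1.73% and 0.159% (0.612% and 0.153%). The ETS word ACCGGAAGT, of the ERG and FLI1 type, was rare and had the other order, at 0.114% of lower and 0.446% of higher sites (0.843% and 1.28%).

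The C/EBP word TTGCNNAAT had the opposite order, with 2.08% of lower and 10.2% of higher sites within peaks against 1.73% of all Daxx-WT and 3.24% of all DKO peaks. The full C/EBP palindrome TTGCGCAA was rare, at 0.0456% and 0.542%. The words of RUNX (TGTGGTTT, 6.93% and 6.79%) and AP-1 (TGAGTCA, 6.98% and 7.72%) were at nearly the same share of lower and higher sites. Outside peaks the Pu.1 word was at 8.73% of lower and 1.2% of higher sites, and the C/EBP word at 1.99% and 2.04%. With words read around the centre of the site in place of the summit, the Pu.1 word was at 11.5% of lower and 1.95% of higher sites within peaks and the C/EBP word at 5.58% of higher sites. These are letters in a window, not binding of a factor.

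**Figure D2:**
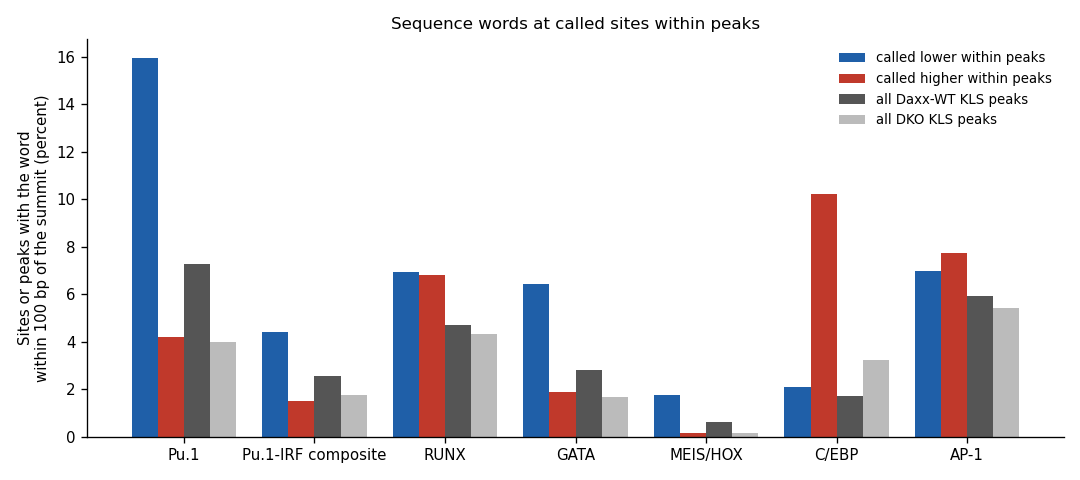
Share (vertical, percent) of called lower sites, called higher sites, all Daxx-WT peaks and all DKO peaks of KLS cells with each sequence word within 100 bp of the summit. The lower sites stand out for the Pu.1 word (15.9%) and the higher sites for the C/EBP word (10.2%), while RUNX and AP-1 words differ little.

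By nearest gene, 2830 of 21911 protein-coding genes (12.9%) had a called lower site within peaks and 2081 (9.5%) a called higher one. Outside peaks, 2136 genes (9.75%) had a lower and 10114 (46.2%) a higher site. These shares are the background for the gene lists that follow. Gene length and the distance to neighbouring genes set how many sites a gene can be given, and the lists were not matched for them. They were also not matched for the number of listed sites within peaks, which raises the share of genes with a called one. Over all genes, 3765 of 12739 such sites were called lower and 2825 higher.

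Within peaks, stem cell and self-renewal genes had called sites in both directions, 50% with a lower and 28.6% with a higher site. Of all genes, 12.9% had a lower and 9.5% a higher one. Of 28 genes, 14 had a called lower site within peaks, 8 a higher one (4 had both), 8 a lower and 17 a higher site outside peaks, and 3 no called site. The median log2 difference of all their listed sites within peaks was -0.90, against -0.84 for all genes. By site, 32 of 84 were called lower and 14 higher, against 3765 and 2825 of 12739 for all genes. Of 32 lower sites, 31 lay in LT-HSC peaks and 7 held the Pu.1 word, against 97.4% and 15.9% of all called lower sites within peaks. After equal-mean scaling, 22 genes had a lower and 1, Thy1, a higher site within peaks. Without either DKO library 0 genes had a called lower site, and without Daxx-WT 1, 9 had one.

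Meis1, a homeobox partner of HOX proteins in stem cells, had 6 lower sites within peaks and 8 outside, and none higher. At the Meis1 site with the largest change, in an intron at 86.0 kb from the TSS, the DKO libraries had 78.5 and 61.8 scaled reads and the Daxx-WT libraries 275.1 and 263.2. The groups were far apart, with a log2 difference of -1.92, or -2.57 after equal-mean scaling. Its promoter had 141 and 124.6 against 372.7 and 292.8 scaled reads (-1.32).

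Mecom, which encodes the stem cell zinc finger factor EVI1, had 3 lower sites within peaks and 11 lower and 1 higher outside. At the Mecom site in an intron at 42.6 kb from the TSS, the DKO libraries had 8.48 and 29.0 scaled reads, against 55.9 and 53.7. Prdm16, a related factor needed to maintain stem cells, had 5 lower sites within peaks and 6 lower and 5 higher outside, and its promoter had 180.3 and 133 scaled reads in DKO against 395.8 and 338.9 in Daxx-WT cells. All 4 libraries at these Prdm16 and Mecom sites kept to their group, as at every called site. Cd34, a surface marker of progenitors, had a lower promoter site (41.4 and 81.5 against 185.5 and 132.7, log2 difference -1.36), as had Hoxa7 (144.2 and 184.6 against 462.4 and 439.8, -1.45).

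Other genes of the list went up or both ways. Thy1, a surface glycoprotein used to tell stem cells from multipotent progenitors and also found on T cells, had the higher site shown above, with 149.5 and 157.4 scaled reads in DKO and 21.3 and 30.7 in Daxx-WT cells and a log2 difference of 2.52, or 1.86 after equal-mean scaling. Kit, the stem cell factor receptor used in the sort, had 3 lower and 3 higher sites within peaks. The higher Kit site at 80.1 kb had 117.7 and 92.8 against 16 and 45 scaled reads, and the lower one at 45.5 kb had 38.2 and 62.8 against 134 and 113. Runx1, a master regulator of blood stem cell formation, had 1 lower and 2 higher sites, and Erg, an ETS factor of stem cells, 2 and 2. Ly6a, which encodes Sca-1, had 1 higher site (210 and 133 against 57.7 and 65.8).

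Genes of granules and neutrophil effectors had higher sites. Of 21 genes, 12 had a called higher site within peaks, 3 a lower one (2 of them both), 1 a lower and 16 a higher site outside peaks, and 3 (Prtn3, Ms4a3 and Cybb) no called site. The median log2 difference of their listed sites within peaks was 1.29, against -0.84 for all genes. Of their 21 higher sites, 14 lay in GMP and 6 in LT-HSC peaks, against 69.4% and 19.9% of all called higher sites within peaks. After equal-mean scaling the sites kept their direction but none was called, so the list had 0 genes with a higher and 5 with a lower site. Without either DKO library 0 genes had a called higher site, and without Daxx-WT 1, 7 had one.

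Ngp, which encodes a cathelin-like protein of secondary granules, had the most reads. Its promoter site spans 6650 bp, against 1800 bp for the Ctsg promoter site and 1200 bp for the Padi4 site below. The Ngp site had 685 and 622.1 scaled reads in DKO and 130.5 and 215 in Daxx-WT cells, a log2 difference of 1.91, or 1.27 after equal-mean scaling. Ctsg, which encodes cathepsin G of primary granules, had 291.6 and 208 against 46.1 and 100.9 at its promoter (1.75, 1.15). Padi4, whose product citrullinates histones in neutrophils, had a site at 3.8 kb with 148.5 and 108.7 against 32.8 and 41.7 (1.76, 1.14). As at every called site, the groups did not overlap in any of these genes, although both groups were spread at the Ctsg promoter.

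The promoters of S100a9 (211 and 133 against 35.5 and 70.2, log2 difference 1.68), S100a8 (81.7 and 83.4 against 16 and 36.2, 1.62), Camp (236.5 and 157.4 against 52.4 and 87.7, 1.48) and Lcn2 (326.6 and 294.2 against 65.7 and 161.2, 1.44) followed. S100a8 and S100a9 encode the subunits of calprotectin, Camp the cathelicidin and Lcn2 an iron-trapping lipocalin of neutrophil granules. Ltf, for lactoferrin, and Ncf4 and Cyba, for subunits of the NADPH oxidase, also had higher sites. Lower sites were at the promoter of Ncf1, another oxidase subunit (63.6 and 68.4 against 154.4 and 150.3, -1.19), and 7.1 kb from Lyz2, the lysozyme of macrophages and granulocytes (-1.06). The promoter of Lyz2 had a higher site (36 and 43.1 against 16 and 21.9, 1.02).

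**Figure D3:**
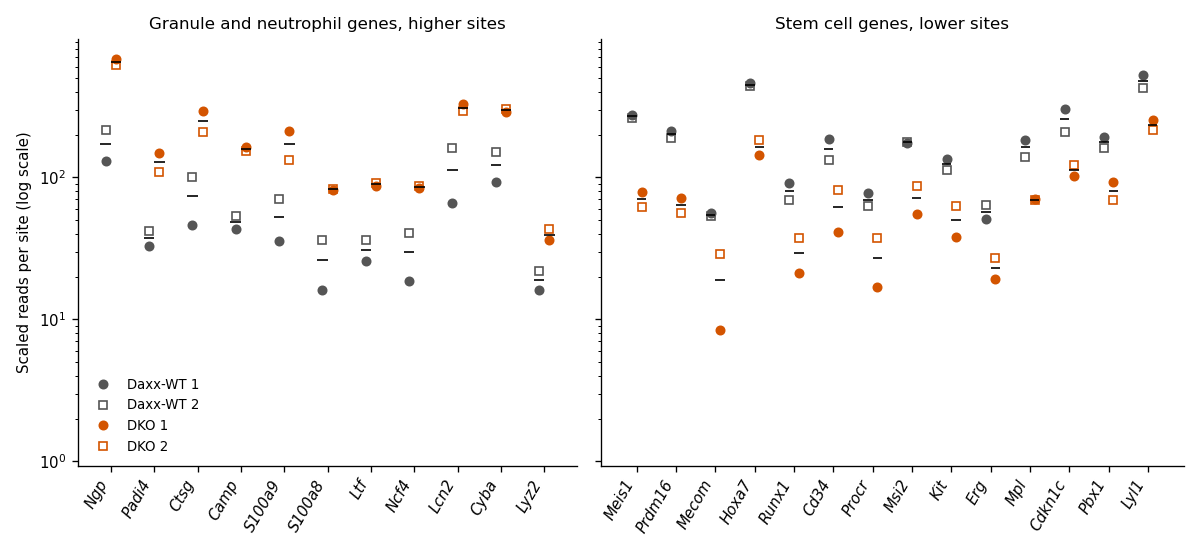
Scaled reads (vertical, log scale) in each Daxx-WT and DKO library, with bars at the group means, at the called site of largest change within peaks for 11 of the 12 granule and neutrophil genes with a higher site (left) and the stem cell genes with a lower site (right). The DKO libraries lie above both Daxx-WT libraries at every gene drawn on the left, as at Ngp with 685 and 622.1 against 130.5 and 215, and below them at all 14 on the right. Every called site is separated in this way.

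Promoter peaks gave a view of the granule genes that does not need the scaling of sites. Of the 21 genes, 12 had a promoter peak in the DKO and 10 in the Daxx-WT list, 5 of them in both. Camp, Ctsg, Lcn2, Ncf4, Ngp, S100a8 and S100a9 had one in DKO alone, and Ltf, Lyz2, Mmp9, Mpo and Ncf1 in Daxx-WT alone. Over all protein-coding genes, 11205 had a promoter peak in the DKO and 12857 in the Daxx-WT list, 199 in DKO alone and 1851 in Daxx-WT alone. In the stem cell list, 15 of 28 genes had one in DKO and 21 in Daxx-WT, and Cd34, Erg, Fli1, Hoxa9, Prdm16 and Tal1 had one in Daxx-WT alone.

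Markers of the sort were read beside these lists. Of 4 genes that mark KLS or blood cells (Kit, Ly6a, Cd34 and Ptprc), 3 had a promoter peak in Daxx-WT, 3 in Daxx-KO and 1 (Kit) in DKO cells, and Ly6a had none in any of these lists. Of 7 genes that mark cells the sort removes, 2 had one in Daxx-WT (Itgam among them), 1 in DKO (Itgax) and 3 in Daxx-KO cells. Itgam, the CD11b of mature myeloid cells, had 2 lower sites within peaks, whereas Ly6g, the granulocyte marker, had no promoter peak but 1 higher site within and 8 outside peaks. Cd3e and Klrb1c of T and NK cells had no site within peaks. The part of other cells, or of a shift in the makeup of the KLS gate, in these differences was not tested.

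Myeloid transcription factors, of which Pu.1 itself is one, had called sites within peaks in both directions. The median log2 difference of their listed sites within peaks was -0.73, against -0.84 for all genes. Of 16 genes, 8 (50%) had a lower and 4 (25%) a higher site within peaks (Gfi1 had both), against 12.9% and 9.5% of all genes. By site, the list was close to all genes for lower sites. Of its 36 listed sites within peaks, 11 were called lower and 6 higher, against 3765 and 2825 of 12739. Outside peaks, 3 had a lower and 10 a higher site, and Cebpb, Egr1 and Egr2 had no called site. Counted over the gene body with 10 kb on each side in place of the nearest TSS, 2 genes had a lower site, since most of these sites lie farther away. At a site 19.6 kb from Cebpa, the DKO libraries had 22.3 and 52.5 scaled reads and both Daxx-WT libraries 130.5 (log2 difference -1.78, -2.54 after equal-mean scaling). The site in the Klf4 region shown above, near a gene for a monocyte factor, had 20.1 and 31.9 against 87.9 and 68.0 (-1.55). Maf, a factor of macrophages, had 2 lower sites within and 2 higher ones outside peaks. Irf8, the factor of monocytes and dendritic cells, had 3 lower and 3 higher sites, all outside peaks, with its promoter peak in Daxx-WT alone.

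Among the higher sites of this list, the site at 14.7 kb from Jdp2, an AP-1 family repressor, had 85.9 and 77.8 scaled reads in DKO and 6.21 and 25.2 in Daxx-WT cells (2.31, 1.71). It was also called after equal-mean scaling. The promoter of Cebpe had 328.7 and 343.8 against 122.5 and 144.8 (1.33, 0.65) and a peak in DKO cells alone. Gfi1 encodes a transcriptional repressor that acts in granulocyte development and stem cell cycling. Its reads rose at the promoter (193 and 189.2 against 74.5 and 102) and fell at a site 32.5 kb away (117.7 and 98.4 against 303.5 and 253.4).

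Receptors of myeloid cytokines were split, with 6 of 15 genes having a lower and 6 a higher site within peaks, 2 of them both. After equal-mean scaling, 10 had a lower and 0 a higher site. The genes with a lower site were Csf1r, Csf2ra, Il6ra, Il10ra, Il1r1 and Ifngr1, and those with a higher one Csf3r, Il1r2, Ifngr2, Tnfrsf1b, Il1r1 and Ifngr1. Csf1r, the M-CSF receptor and a known target of Pu.1, had 161.2 and 111.5 against 374.5 and 364.1 scaled reads at a site 1.3 kb from its TSS (log2 difference -1.43), and the site shown above near Csf2ra, a chain of the GM-CSF receptor, had 37.1 and 45.9 against 114.5 and 123.9 (-1.50). The other chains of that receptor in the list, Csf2rb and Csf2rb2, had no called site within and 5 and 3 higher ones outside peaks. Csf3r, the G-CSF receptor, had 166.5 and 147.1 against 47.9 and 68.0 at the site shown above (1.42, 0.78), and Il1r2, a decoy receptor for IL-1, had 206.8 and 131.2 against 48.8 and 58.1 (1.64, 1.03). Of the 9 higher sites of this list, 7 lay in GMP and 0 in LT-HSC peaks, and 4 held the C/EBP word. Of all called higher sites within peaks, 69.4% lay in GMP and 19.9% in LT-HSC peaks, and 10.2% held that word.

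Among 24 genes of myeloid adhesion and Fc receptors, 8 had a lower and 9 a higher site within peaks, 2 of them both. The promoter of Fcgr1, the high-affinity IgG receptor of monocytes, had 49.8 and 55.3 scaled reads in DKO and 186.4 and 172.2 in Daxx-WT cells (-1.75). The promoter of Cd33 had 49.8 and 78.7 against 172.2 and 231.4 (-1.64), while 2 other Cd33 sites within peaks were higher, and the Itgam site shown above 65.8 and 83.4 against 188.1 and 201.8 (-1.38). In the other direction, Trem1, an amplifier of neutrophil and monocyte responses, had 52 and 67.5 against 11.5 and 5.48 (2.67, 1.99), and a site near Fcgr4, an activating Fc receptor, had 111.3 and 80.6 against 14.2 and 28.5 (2.12, 1.52). Both were called after equal-mean scaling as well. Of 26 Toll-like receptor and Src-family signalling genes, 9 had a lower and 6 a higher site, 5 of them both. At the Tlr5 site shown above, the flagellin receptor, the values were 68.9 and 80.6 against 205.9 and 241.3 (-1.57), and at the promoter of Syk, a kinase of immune receptors, 56.2 and 77.8 against 143.8 and 204 (-1.36). Syk had 3 higher and 2 lower sites within peaks, of which a higher one at 14.4 kb had 241.8 and 193.9 against 80.8 and 105.3 (1.22, 0.58). The promoter of Lcp1, for the actin bundler L-plastin, had 271.5 and 171.4 against 65.7 and 102 (1.39, 0.79), and an intron of it was lower (-1.08).

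Of 25 B lymphoid genes, 7 had a lower and 3 a higher site within peaks, 1 of them both. Bach2, a repressor that favours lymphoid over myeloid fate, had 7 lower sites and none higher within peaks, but 11 higher ones outside. At the Bach2 site shown above, the DKO libraries had 21.2 and 41.2 and the Daxx-WT libraries 119.8 and 80.1 scaled reads (-1.65, -2.40). Flt3, the receptor of lymphoid-primed progenitors, had 2 lower sites, Bcl11a, needed for B cells, 3 lower and 1 higher, and the promoter of Irf4 had 75.3 and 64.6 against 158.8 and 155.7 (-1.16). Pax5, the B cell commitment factor, had 3 lower sites and 1 higher, all outside peaks. Of 22 T and NK genes, 5 had a lower and 5 a higher site within peaks. Tcf7, an early T cell factor, had 248.1 and 202.4 against 66.6 and 74.6 at a higher site (1.66, 1.02), and Runx3, a factor of cytotoxic cells, had 4 lower sites within and 12 higher ones outside peaks.

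Erythroid genes had 7 of 20 with a lower and 0 with a higher site within peaks. A site at the globin gene Hbb-bt had 20.1 and 24.4 scaled reads in DKO and 80.8 and 63.6 in Daxx-WT cells (-1.65). All 10 lower sites of the list lay in LT-HSC and CMP peaks, 5 in GMP peaks. Of all called lower sites within peaks, 97.4% lay in LT-HSC, 87.0% in CMP and 75.3% in GMP peaks. Of 22 megakaryocyte and mast cell genes, 6 had a lower and 2 a higher site, 1 of them both. The site of largest change was a higher one, 13.9 kb from the TSS of Fli1, an ETS factor of megakaryocytes that is also in the stem cell list, with 163.3 and 78.7 against 34.6 and 35.1 (1.77, 1.19). Hdc, for the enzyme that makes histamine, had 1 lower and 1 higher site. The promoter of Mitf, a mast cell factor, had 30.8 and 35.6 against 105.6 and 107.5 (-1.65), and 7 further Mitf sites were lower outside peaks. The promoters of Pf4, Vwf, Itgb3 and Selp, genes of platelets, were lower by -1.24, -1.24, -1.22 and -1.03. Promoter peaks of this list numbered 14 in Daxx-WT and 7 in DKO cells.

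Genes of the interferon response, relevant since both groups had received pI:pC, had 6 of 32 with a lower and 3 with a higher site within peaks (18.8% and 9.38%, against 12.9% and 9.5% of all genes). The promoters of Oas1a and Rtp4 were lower by -1.18 and -1.27. Oasl2 had a higher site (193 and 137.7 against 45.3 and 68, 1.53, 0.92), and Ddx58, for the RNA sensor RIG-I, a higher site at 2.2 kb (1.31, 0.66) and a lower one at 4.4 kb (-1.27). Of 28 inflammatory cytokine, chemokine and NF-kB genes, 8 had a lower and 6 a higher site, 3 of them both. The promoters of Ccl2 (25.4 and 35.6 against 86.1 and 60.3, -1.23) and Il6 (79.5 and 69.3 against 149.1 and 165.6, -1.07) fell. Higher sites lay near Nfkbia, the inhibitor of NF-kB (112.4 in both DKO libraries against 23.1 and 32.9, 1.97, 1.32), near Cxcr2 and Cxcr4, chemokine receptors that move neutrophils out of and keep them in the marrow, and near Ccr1, although Cxcr2 and Ccr1 had 1 lower site each as well. Of 15 AP-1 family genes, 6 had lower and 6 higher sites, none both. Batf3, Fosb, Fosl2, Bach1, Bach2 and Atf3 had the lower sites, and Batf, Fos, Fosl1, Jun, Mafk and Nfe2l2 the higher ones. A site 24.1 kb from Nfe2l2, which encodes the oxidative stress factor NRF2, had 141 and 124.6 against 23.1 and 38.4 (2.08, 1.45), and Jun had 3 higher sites, as at 41.1 kb with 156.9 and 119 against 31.1 and 58.1 (1.61, 1.00).

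**Figure D4:**
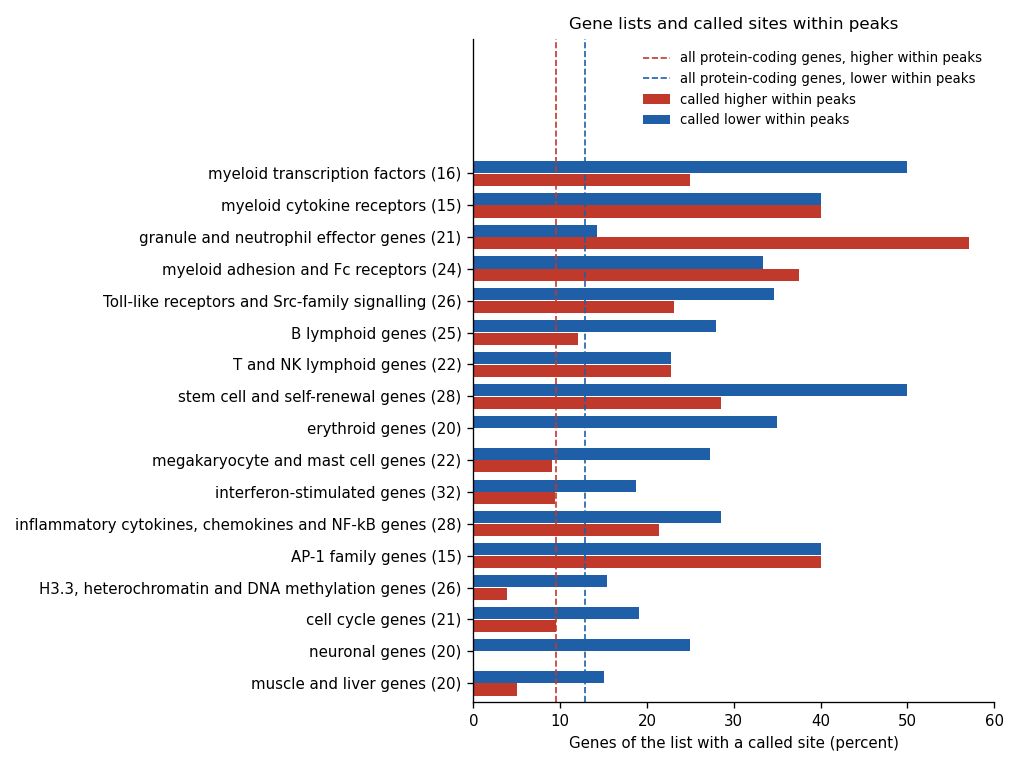
Percent of the genes of each list (horizontal) with a called lower or a called higher site within peaks, with the number of genes in brackets and dashed lines at the shares of all protein-coding genes, 12.9% lower and 9.5% higher. Granule and neutrophil genes have the longest bar for higher sites (12 of 21), and stem cell genes and myeloid transcription factors the longest for lower sites (14 of 28 and 8 of 16). The bars count genes and were not matched for the number of listed sites of a gene.

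Of 26 genes of H3.3, heterochromatin and DNA methylation, 4 (15.4%) had a lower site within peaks, Daxx itself among them. A higher one was near 1 gene (3.85%), Tet2. Of all genes, 12.9% had a lower and 9.5% a higher site within peaks. The Daxx site spans exons 1 to 5 and overlaps the exons flanked by LoxP sites in the study, so deletion of the DNA by itself removes reads there. Dnmt3a, the de novo DNA methyltransferase, had 3 lower sites within and 10 higher ones outside peaks, the lower ones including 76.3 and 102.1 against 229.8 and 230.3 near its TSS (-1.36). A site 13.5 kb from H3f3a, which encodes H3.3, had 37.1 and 67.5 against 155.3 and 129.4 (-1.43). Tet2, which oxidises methylated cytosine, had 2 higher sites, 1 with 119.8 and 97.4 against 34.6 and 45 (1.43, 0.80). Atrx, Setdb1, Suv39h1, Cbx1, Cbx3 and Cbx5 had no called site within or outside peaks.

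Outside the lists, the gene with the most lower sites within peaks was Pde4d, a cAMP phosphodiesterase, with 10, but it also had 6 higher ones and spans 1503.5 kb. Bach2, Ephb2, Fam181b and Frmd4b had 7 each, and Adgrl4, Gng2, Meis1, Nbea and Rybp 6 each. All of these but Pde4d had no higher site within peaks. Fam181b is 2.0 kb long, so its sites lie around and not in it. Chd7, a chromatin remodeller, and Susd1 had the most higher sites within peaks (7 each), followed by Bcl2l11, Ednra, Foxp1, Itpr1 and Pde4d with 6. Bcl2l11 encodes the pro-apoptotic BIM, and its 6 sites had log2 differences from 1.2 to 2.31. Of the higher sites outside peaks, 41 were near Foxp1, 33 each near Dab2ip and Tns3, and 32 near Itpr1.

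The sites with the largest changes within peaks were near genes of none of the lists. The lower site in an intron of Akap13, which encodes an anchoring protein of protein kinase A, had 12.7 and 35.6 scaled reads in DKO and 128.7 and 119.5 in Daxx-WT cells (log2 difference -2.31, -3.09 after equal-mean scaling). The promoter of Gapt, which encodes an adaptor of B and myeloid cells, had 27.6 and 17.8 against 102.9 and 130.5 (-2.31), and an intron of Dock5, 25.4 and 37.5 against 182.8 and 136 (-2.31). These 3 sites lay in LT-HSC, CMP and GMP peaks. Of the 5 largest rises, 2 were near Vmn1r43, a vomeronasal receptor gene, with 202.5 and 125.5 against 11.5 and 17.6 at the first (3.41, 2.83) and 148.5 and 89.9 against 21.3 and 8.77 at the second (2.91, 2.28). Neither lay in a peak of LT-HSCs, CMPs or GMPs. Vmn1r43, like Hbb-bt, Ly6a and Ly6g above, has near copies in the genome, and how reads that match several places were treated is not given in the sources used here.

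Genes discussed in the study were read last. Fbp1 and Fbp2, which encode fructose bisphosphatases of gluconeogenesis, lie side by side on chromosome 13. A site 5.1 kb from Fbp1 had 10.6 and 22.5 scaled reads in DKO and 42.6 and 41.7 in Daxx-WT cells (-1.30), and a site at the promoter of Fbp2 had 20.1 and 15 against 47 and 37.3 (-1.22). Both lay outside the DKO and Daxx-WT peaks and within Daxx-KO peaks. An intron of Fbp2 had a higher site (30.8 and 34.7 against 10.7 and 16.4, 1.21). At the promoter of Mid1, an X-linked ubiquitin ligase gene, the Daxx-WT libraries were far apart, with 156.2 and 361.9 against 128.3 and 163, and the site was not called (-0.83, adjusted p = 0.419 with limma). After equal-mean scaling this site was called lower (-1.50). Mki67, the proliferation marker, had 1 higher site within and 6 outside peaks, most of them between 21.9 and 89.9 kb away. Wls, a carrier of Wnt proteins, had 1 higher site within peaks, with 250.3 and 145.2 against 73.7 and 105.3 (1.14, 0.54).

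Daxx-KO KLS cells offered values where a site of their own table overlapped a site described here. That table was scaled separately and shares the Daxx-WT libraries, so the values are only set side by side. Its sites have other bounds: at the Ngp promoter the Daxx-WT mean was 46.8 scaled reads in it and 172.7 in the DKO table. It lists only the 17311 sites that the authors selected as different, so a site without a value there cannot be read as unchanged. At the Ngp promoter, where DKO cells were higher, the 3 Daxx-KO libraries had a mean of 14.9 scaled reads against 46.8 in Daxx-WT (log2 difference -1.59). The same held at Camp (27.3 against 83.6, -1.58), the S100a9 promoter (13.5 against 34.1, -1.28) and Cebpe (22.2 against 47.5, -1.06). At the intron site of Spi1 that was higher in DKO cells, Daxx-KO cells had 31.2 against 71.4 (-1.17). The Daxx-WT libraries were far apart there, with 37.4 and 105.5 against 24.5, 33.2 and 35.8 in Daxx-KO. At the Fbp2 promoter, lower in DKO cells, Daxx-KO cells had 213.0 ± 47.5 (SD, n = 3) against 63.0 (1.74). At 2 Il1r1 introns that were lower in DKO cells, Daxx-KO cells had 154.0 against 84.6 (0.86) and 134.7 against 77.3 (0.79). For other genes both tables went the same way, as at the Mecom site at 42.6 kb (30.0 against 56.8, -0.90), the Prdm16 promoter (54.0 against 82.2, -0.60) and, upwards, the sites near Cd22 (63.0 against 28.5, 1.12) and Lef1 (56.6 against 25.3, 1.13).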

How the data were processed

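ATAC-seq libraries of 2 DKO and 2 Daxx-WT KLS samples were compared; groups were taken from the sample titles. The submitters' processing notes name CASAVA 1.8.4, cutadapt 1.13, STAR 2.5.3 and bedtools; alignment settings, read filters and the peak caller are not given in the sources used here. Per the file headers, the authors counted reads in windows of 600 bp moved by 50 bp and merged windows with a p below 0.0001, of 446463 tested, into sites; the deposited signal is the read number of each library divided by a constant (0.91 to 1.13), and group means of it. The deposited peak lists hold, for each group of libraries, positions, summits, a score and a fold ratio over background; the score served to keep higher-scoring peaks in an alternative. The table also holds the authors' own fold changes, p-values, adjusted p-values and direction, which were not used, and neither was the site table of LT-HSCs, taken days after induction.

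Log2(scaled reads + 1) was compared with limma 3.58.1 in R 4.3.3, with Benjamini-Hochberg adjustment over all 446463 windows and calls at an adjusted p under 0.05. The prior degrees of freedom were infinite, so all sites share 1 variance. The fit was checked on simulated data. Genes came from GENCODE M21, whose chromosomes match mm10, and 2 listed genes (Clec7a and Mx2) were not matched. Sequences were read from the GRCm38.p6 reference genome. For each list, values were given for up to 3 genes with the largest called change within a peak, for 20 scaled reads or more in the higher group and groups that do not overlap, and for further genes chosen after their values were seen; beyond the lists, for genes with the most sites and the 5 sites of largest change in each class, of which those outside peaks are not all described. Some genes that this rule names are not reported here, but they remain in the counts. The comparison, the gene lists and the words were chosen with earlier results of these data known. Shares over sites have no test. Alternatives were another scaling, pseudocount, peak overlap, gene assignment, word window, adjustment, the replicate block and leaving out each library; the trend fit and the equal-mean values for words and populations were added after seeing the data.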

Additional observations from a re-analysis of the deposited data

How the results depend on the processing

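Depth was known only as 7.45 to 16 reads per window, which with 2 libraries a group limits calls to large differences. Scaling to equal means gave 3310 higher and 13843 lower calls, in place of 34252 and 7603, and 19.3% of calls higher in place of 81.8%. It left 5471 genes near lower and 199 near higher sites within peaks and 2102 near higher sites outside, with 22 stem cell genes lower. Adjustment over the listed sites alone gave 13444 lower calls and limma with trend, added after seeing the data, 12758. Without either DKO library the prior degrees of freedom fell to 7.82 and limma called 0 sites, against 35230 higher and 10016 lower at an unadjusted p under 0.05 without DKO 1 and 34826 and 10116 without DKO 2; adjusted over listed sites alone, 34932 and 9192, and 34003 and 9525, were called. Leaving out each library gave 0 to 30141 higher and 0 to 5509 lower calls (22502 and 3731 without Daxx-WT 1), 0 to 12 granule genes higher and 0 to 14 stem cell genes lower. The site means of log2 differences were -2.87 for Daxx (-3.28 to -2.46) and -3.37 for Spi1 (-3.81 to -2.93), with adjusted p = 0.0609 without DKO 1 and 0.193 without DKO 2. The labels do not say whether equal replicate numbers pair the samples. The correlation over sites of the deviations of DKO 1 and Daxx-WT 1 was -0.00308, which with 2 libraries a group cannot settle it. The fit with a replicate block called 34559 higher and 8046 lower sites. With 50% of the site required in peaks, 47.6% of lower and 3.37% of higher sites were within peaks, with higher-scoring peaks 47.9% and 7.10%, with equal means 68.8% and 8.70%. The Pu.1 word was at 17.8% of lower sites within 200 bp, 11.5% around site centres and 12.8% with equal means, and the C/EBP word TTGCNNAAT at 12.2% and 5.58% of higher sites. LT-HSC peaks covered 91.5% of lower and 5.36% of higher sites with 50% overlap and 98.0% and 0.694% with equal means, GMP peaks 50.8% and 28.0%, and 78.2% and 35.1%. Every called site kept its direction with equal means, but the balance of calls turned, also in the granule list, from 12 genes higher and 3 lower to 0 and 5. The other alternatives moved no count of sites or genes by more than 1.5 times, except that 2 myeloid transcription factors had a lower site by gene body.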

Other observations

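Genes of tissues other than blood gave values beside which the blood lists can be read. Of 20 neuronal genes, 5 had a lower and 0 a higher site within peaks, and 9 had a promoter peak in the Daxx-WT and 2 in the DKO list. A site in an intron of Cntnap2, a neuronal adhesion gene, had 64.7 and 76.8 scaled reads in DKO and 206.8 and 163.4 in Daxx-WT cells (log2 difference -1.38). Dlg2, a postsynaptic scaffold gene, had 4 lower sites within and 7 outside peaks. All 9 lower sites of the neuronal list lay in LT-HSC peaks, as did 97.4% of all called lower sites within peaks. Of 20 muscle and liver genes, 3 had a lower and 1 a higher site within peaks, and promoter peaks numbered 4 in the Daxx-WT and 0 in the DKO list. Ryr2, the calcium channel of heart muscle, had 2 higher sites, both in GMP peaks, the larger with 110.3 and 104 against 25.7 and 31.8 (1.86). Of 21 cell cycle genes, 4 had a lower and 2 a higher site within peaks. Ccnd1, for cyclin D1, had 3 lower sites, as at 90.3 kb with 60.4 and 66.5 against 146.4 and 164.5 (-1.28). Cdk6, its kinase partner, had 1 lower site (14.8 and 30 against 59.5 and 59.2) and 1 higher site with a log2 difference of 1.21.

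Of 421 listed sites on the X chromosome, 28.5% were higher in DKO cells, with 109 called higher and 209 called lower. On the autosomes 72.5% of 50502 sites were higher. The 5 listed sites on the Y chromosome were all higher, with 3 called. The labels do not give the sex of the mice, and its part in these values was not tested.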
